A study of Mus musculus with 20 samples.

Results

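The breakdown of phenylalanine, tyrosine and tryptophan in mouse liver was described through 9 enzyme genes, chosen by name from the 38924 genes of the expression table. Hpd, Hgd, Gstz1 and Fah act in tyrosine breakdown, and Tdo2, Afmid, Kmo, Kynu and Haao act in the kynurenine route of tryptophan. Liver mRNA was sequenced from 20 male mice, 5 in each of 4 groups, with 1 library per mouse. NDWT were wild type C57BL/6J mice (C57/BL6 in the labels) on control chow and NDKO were TSP-1 Knockout mice on the same chow. HFWT and HFKO were the same genotypes on CDAHFD, a choline-free high fat diet with a defined amino acid content, used as a model of steatohepatitis. All mice were bought at 5 weeks of age, acclimated for 1 week and then kept on their diet for 12 weeks. The knockout is carried in every cell from conception, and the RNA came from whole pieces of liver, so that no cell type was separated. The values are FPKM, fragment numbers divided by transcript length and library depth, which can be compared between genes of different length.

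Phenylalanine is first turned into tyrosine, which loses its amino group through Tat. Hpd then makes homogentisate, Hgd opens its ring, Gstz1 isomerises the product, and Fah cleaves it to fumarate and acetoacetate. Inherited loss of HGD causes alkaptonuria and loss of FAH causes hereditary tyrosinaemia with liver failure. Most tryptophan is broken down in the liver, where Tdo2 opens the indole ring, Afmid releases kynurenine, Kmo hydroxylates it, Kynu removes its side chain and Haao opens the remaining ring. The product of Haao leads to quinolinate and NAD through Qprt, or away from NAD through Acmsd. Hepatocytes are the main site of these reactions.

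Of the groups 4 comparisons were made: the diets were set against each other within WT and within TSP-1 null mice, and the genotypes within control diet and within CDAHFD. A gene was called a differentially expressed gene (DEG) at a false discovery rate (FDR) under 0.05 over 14524 tested genes together with an absolute log2 fold change (log2FC) above 0.58. All 9 genes passed the filter of FPKM above 0.5 in at least 5 libraries. Between 15641545 and 23276322 fragments were recovered per library, and the scarcest of the 9 genes, Afmid, was covered by 161 to 1314 of them. In HFWT library 5, 5.55% of fragments belonged to the rRNA-like genes Gm23935 and Gm26924, against 0.176% to 1.98% in the other libraries. None of the 16 hepatocyte markers was at 0 in all libraries of a group.

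Thbs1, the gene that encodes TSP-1, went against the labels on control diet. It read 0.17, 0.326, 0.268, 0.058 and 0.165 FPKM in NDWT and 1.005, 1.5, 0.986, 1.895 and 1.13 FPKM in NDKO. On CDAHFD it read 5.77, 6.10, 3.46, 3.91 and 3.86 FPKM in HFWT and 3.30, 3.32, 3.05, 3.14 and 4.40 FPKM in HFKO. Every NDKO library was thus above every NDWT library, and the CDAHFD groups overlapped. Which exons the allele lacks is not given in the sources used here, and a value for the whole gene may count transcript from outside the deletion. Directions between genotypes below are therefore between libraries labelled TSP-1 null and libraries labelled WT.

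RefSeq promoters were matched for 8 of the 9 genes. The 240 bases that lie from 250 to 11 bases before the RefSeq start are shown for 3 tyrosine enzymes, since Hpd and Hgd had the largest changes of the 4 tyrosine members and Fah a smaller one. They are read 5′ to 3′ on the strand of the gene, in GRCm38.p6. Hpd lies on the minus strand at chr5:123182734-123182973, Hgd on the plus strand at chr16:37579903-37580142 and Fah on the minus strand at chr7:84605953-84606192, inside an intron of the longest annotated Fah transcript. Capitals mark matches, on either strand, to the TATA box letters TATAAA, or to the CCAAT box, or to the C/EBP letters TTGCNNAA.
Hpd: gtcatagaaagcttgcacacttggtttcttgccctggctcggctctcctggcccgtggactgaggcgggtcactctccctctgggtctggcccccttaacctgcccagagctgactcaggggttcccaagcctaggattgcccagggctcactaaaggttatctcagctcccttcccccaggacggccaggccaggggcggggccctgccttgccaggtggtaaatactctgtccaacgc
Hgd: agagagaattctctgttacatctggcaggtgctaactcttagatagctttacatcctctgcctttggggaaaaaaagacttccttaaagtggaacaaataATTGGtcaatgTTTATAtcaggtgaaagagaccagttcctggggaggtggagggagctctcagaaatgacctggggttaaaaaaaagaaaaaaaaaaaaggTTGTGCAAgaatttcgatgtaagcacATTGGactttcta
Fah: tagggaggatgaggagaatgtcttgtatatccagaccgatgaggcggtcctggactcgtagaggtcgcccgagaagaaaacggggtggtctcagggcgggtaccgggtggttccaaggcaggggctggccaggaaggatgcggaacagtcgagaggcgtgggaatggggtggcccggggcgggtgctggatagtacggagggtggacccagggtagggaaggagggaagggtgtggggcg
The Hgd window held 2 CCAAT matches, 1 TATA match and 1 C/EBP match, none of them overlapping. The Hpd and Fah windows held no match to these letters, to the HNF1 motif GTTAAT, to the HNF4 letters CAAAGTCCA or to the glucocorticoid receptor motif TGTTCT. Over 32851 promoter windows of the same length, 12.1% held the TATA letters, 33.0% a CCAAT box, 9.29% the C/EBP letters, 6.26% the HNF1 motif, 0.365% the HNF4 letters and 15.5% the glucocorticoid receptor motif. Hgd and Hpd therefore shared no motif of this set. Of the other members, Haao held the HNF1 motif and the glucocorticoid receptor motif, Tdo2 a TATA match and a CCAAT match, and Gstz1 a CCAAT match at each of its 2 starts. The Kmo and Afmid windows held none of the 6 motifs. The Kmo window, at chr1:175631943-175632182, and the Gstz1 window at chr12:87157353-87157592 lie inside the annotated spans of their genes. The motif matches are descriptions of the sequence and are not binding sites.

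On control diet Hpd was the most abundant of the 9 genes, with a mean of 1077 ± 150.0 FPKM (SD, n = 5) in NDWT, and Afmid the least, with 11.3 ± 1.84 FPKM. Between them stood Tdo2 at 462 ± 52.2, Gstz1 at 328 ± 19.0, Haao at 251 ± 34.3, Fah at 241 ± 18.8, Hgd at 231 ± 40.9, Kmo at 59.4 ± 4.17 and Kynu at 28.3 ± 4.67 FPKM. The NDWT libraries of Haao, Fah and Hgd overlapped with their neighbours in this order, and all other neighbours were separate. Hpd stayed highest and Kmo, Kynu and Afmid stayed lowest in that order in all 4 groups. Hgd moved from the sixth place in NDWT to the third in NDKO, where it overlapped with Gstz1, and was sixth again in HFWT and HFKO. The summed FPKM of the 9 genes ranged from 2370 to 2966 in NDWT, 3167 to 3580 in NDKO, 1430 to 1659 in HFWT and 1359 to 1744 in HFKO. The sums of the control-diet genotypes did not overlap with each other, whereas those of the CDAHFD genotypes did. Hpd weighed most in these sums. Its mean was 1077 FPKM in NDWT and 1683 in NDKO, where the mean sums were 2689 and 3455.

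**Figure D1:**
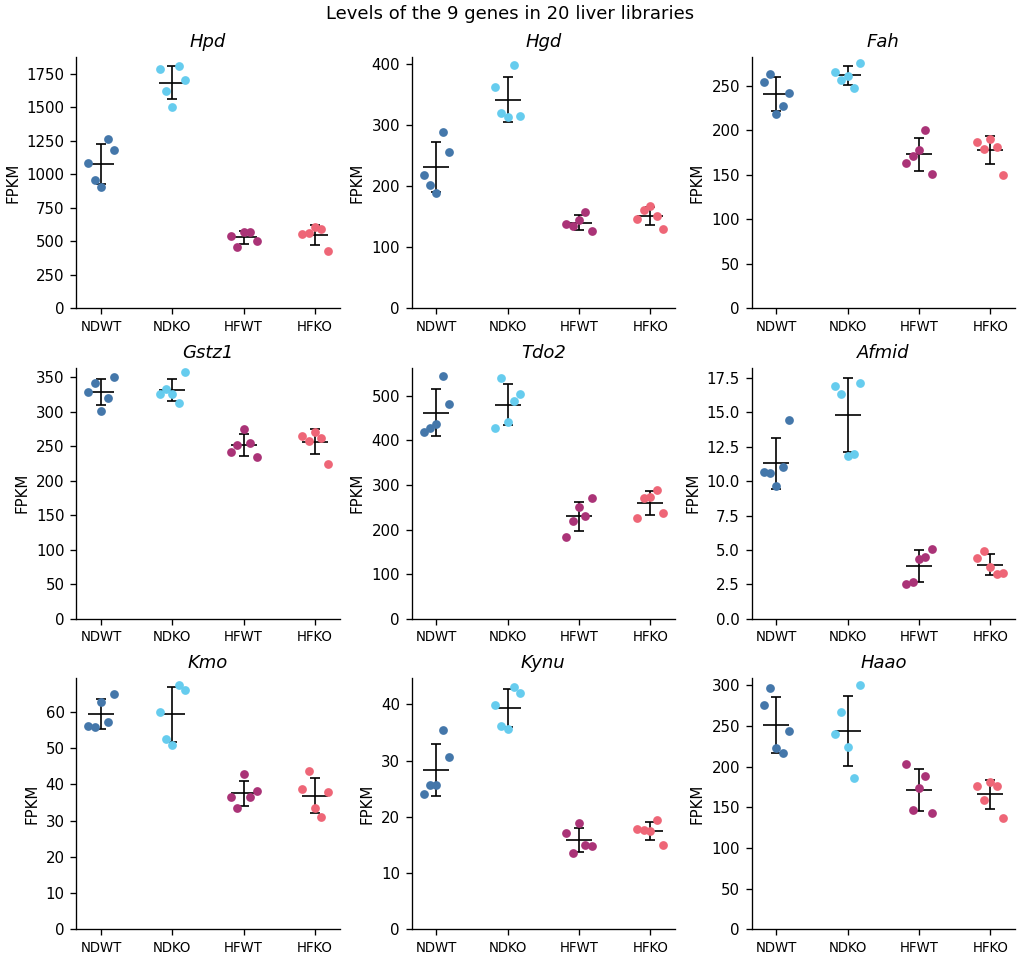
FPKM of each of the 9 genes (vertical axes, from 0, each with its own range) in the 5 libraries of NDWT, NDKO, HFWT and HFKO; points are libraries and the black bars are the mean and SD. Every CDAHFD library lies below every control-diet library of the same genotype for all 9 genes, and the NDKO libraries stand above the NDWT libraries for Hpd, Hgd and Kynu.

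Most of the pathway was lower on CDAHFD in both genotypes. In WT mice 6 of the 9 genes were called lower, where 4.62% of all tested genes were, and 0 were called higher, where 44.1% of all tested genes were. Without HFWT library 5, the library that stood apart, the count in WT was also 6. In TSP-1 null mice the same 6 genes were called lower, against 4% of all tested genes, and 0 higher, against 41.9%. All 9 genes had groups that did not overlap, all of them lower on CDAHFD, in each genotype. Over all tested genes 56.2% of WT and 57.8% of TSP-1 null comparisons did not overlap in either direction. The median log2FC of the 9 genes was -0.71 in WT and -0.89 in the TSP-1 null mice, beside medians of 0.53 and 0.50 over all tested genes.

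In tyrosine breakdown, Hpd, the dioxygenase that makes homogentisate, fell furthest. Its FPKM was 1081, 955, 904, 1265 and 1179 in NDWT and 537, 457, 567, 571 and 503 in HFWT. In the TSP-1 null mice it was 1783, 1621, 1503, 1806 and 1703 in NDKO and 549.9, 559.8, 608, 589 and 425 in HFKO. The lowest control-diet library, at 904, stood above the highest CDAHFD library, at 608, whatever the genotype. The log2FC was -1.02 ± 0.11 (SE, FDR = 5.11e-08) in WT and -1.63 ± 0.11 (FDR = 1.18e-10) in the TSP-1 null mice, or 2.03-fold and 3.10-fold lower.

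Hgd, which opens the ring of homogentisate, followed with smaller differences. It read 218, 202, 189, 288 and 257 FPKM in NDWT and 137, 135, 144, 158 and 127 FPKM in HFWT. It read 363, 320.1, 314, 398 and 316 FPKM in NDKO and 146, 161, 167, 152 and 129 FPKM in HFKO. The CDAHFD libraries of both genotypes lay in the same narrow range, and the control-diet libraries of the genotypes lay apart. Its log2FC was -0.71 ± 0.11 (FDR = 7.52e-06) in WT and -1.18 ± 0.11 (FDR = 1.07e-08) in the TSP-1 null mice.

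Gstz1 and Fah, the last enzymes of the route, were lower on CDAHFD by less than the fold change threshold. Gstz1 ranged from 301 to 350.1 FPKM in NDWT, 313 to 357 in NDKO, 233 to 275 in HFWT and 224 to 270.0 in HFKO. Its log2FC was -0.385 ± 0.06 (FDR = 1.97e-05) in WT and -0.37 ± 0.06 (FDR = 3.03e-05) in the TSP-1 null mice. Fah ranged from 218 to 264 FPKM in NDWT, 248 to 276 in NDKO, 152 to 201 in HFWT and 150.0 to 190.3 in HFKO. Its log2FC was -0.48 ± 0.08 (FDR = 1.64e-05) in WT and -0.56 ± 0.08 (FDR = 2.92e-06) in the TSP-1 null mice. Neither gene was a DEG, although no CDAHFD library reached a control-diet library of its genotype.

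Among the 5 kynurenine members, Tdo2 and Afmid, which open the route, had the largest falls in WT mice. Tdo2, the hepatic dioxygenase that begins tryptophan breakdown, read 419, 429, 436, 545 and 481 FPKM in NDWT and 184, 219, 249.6, 229 and 269.8 FPKM in HFWT. It read 429, 540.3, 441, 488 and 503 FPKM in NDKO and 226, 271, 273, 288 and 237 FPKM in HFKO. The lowest control-diet library was at 419 and the highest CDAHFD library at 288, so that the diets did not overlap. Its log2FC was -1.01 ± 0.10 (FDR = 4.61e-08) in WT and -0.89 ± 0.10 (FDR = 2.77e-07) in the TSP-1 null mice.

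Afmid, the formamidase that releases kynurenine, had the largest fold changes of the 9 genes at the lowest level. It read 10.7, 10.6, 9.65, 11 and 14.4 FPKM in NDWT and 2.54, 2.67, 4.335, 4.505 and 5.035 FPKM in HFWT. It read 16.9, 16.3, 11.8, 11.95 and 17.1 FPKM in NDKO and 4.43, 4.93, 3.79, 3.22 and 3.29 FPKM in HFKO. No CDAHFD library exceeded 5.035 FPKM and no control-diet library was below 9.65 FPKM. The log2FC was -1.58 ± 0.185 (FDR = 2.89e-07) in WT and -1.89 ± 0.185 (FDR = 2.95e-08) in the TSP-1 null mice, or 2.98-fold and 3.70-fold lower. The annotated span of Afmid shares 169 bases with Tk1, the thymidine kinase gene on the opposite strand, and whether fragments were counted by strand is not given in the sources used here. Tk1 itself stood at 2.205 to 6.08 FPKM over all libraries and was not a DEG in either diet comparison, with a log2FC of -0.26 ± 0.21 in WT and -0.37 ± 0.21 in the TSP-1 null mice.

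Kmo, Kynu and Haao act on kynurenine in that order. Kmo read 56.2, 55.9, 62.7, 57.1 and 64.9 FPKM in NDWT and 36.6, 33.4, 42.9, 36.5 and 38.1 FPKM in HFWT. It read 59.9, 52.4, 50.7, 67.4 and 66.1 FPKM in NDKO and 38.6, 43.6, 33.5, 31.0 and 37.8 FPKM in HFKO. Kmo thus fell to nearly the same range in both genotypes, with a log2FC of -0.66 ± 0.10 (FDR = 4.70e-06) in WT and -0.68 ± 0.10 (FDR = 3.59e-06) in the TSP-1 null mice. Kynu read 24.1, 25.7, 25.7, 35.4 and 30.7 FPKM in NDWT and 17.1, 13.6, 18.9, 15.1 and 14.9 FPKM in HFWT. It read 39.8, 36.2, 35.6, 43.2 and 42.0 FPKM in NDKO and 17.8, 17.6, 17.4, 19.4 and 15.01 FPKM in HFKO. Kynu fell by 0.82 ± 0.11 (FDR = 9.72e-07) in WT and by 1.17 ± 0.11 (FDR = 1.06e-08) in the TSP-1 null mice on the log2 scale. Haao ranged from 217 to 297 FPKM in NDWT, 187 to 300.5 in NDKO, 143 to 203 in HFWT and 137 to 181 in HFKO. Its log2FC of -0.56 ± 0.13 (FDR = 0.000627) in WT and -0.545 ± 0.13 (FDR = 0.000825) in the TSP-1 null mice was short of the threshold, and it was not a DEG.

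**Figure D2:**
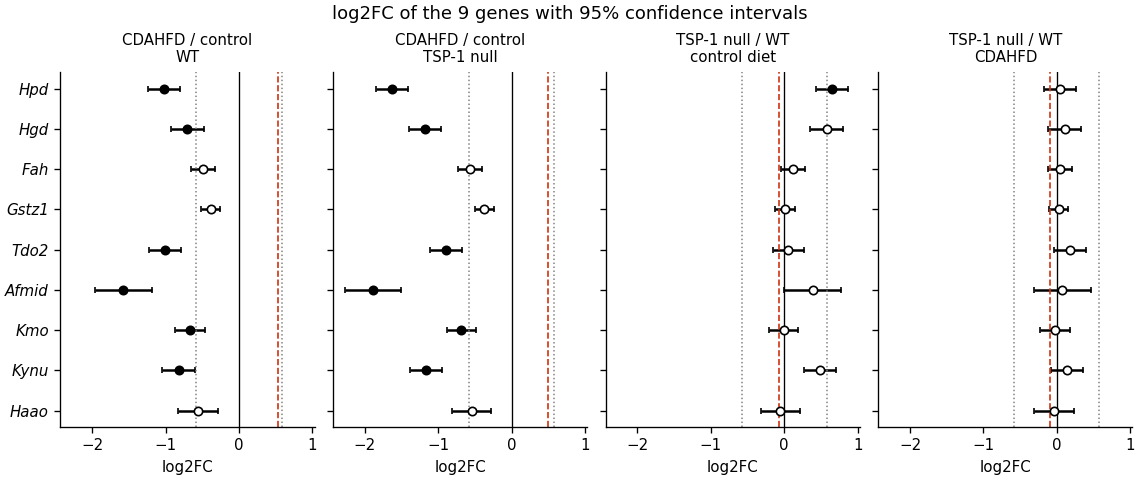
log2FC of the 9 genes (horizontal axes) in the 4 comparisons, with 95% confidence intervals from limma; filled points are DEGs, dotted lines mark a log2FC of 0.58 in either direction and the dashed line is the median over all 14524 tested genes. In the diet panels all 9 points are below 0 while the median gene is above 0, and in the genotype panels Hpd on control diet is the DEG.

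Markers of other cells moved with the diet. The 16 hepatocyte markers had a mean log2 level of 10.65 to 10.76 in NDWT, 10.87 to 10.98 in NDKO, 10.20 to 10.47 in HFWT and 10.40 to 10.57 in HFKO. Of the hepatocyte markers 4 were called lower in WT and 6 in the TSP-1 null mice, beside 4.62% and 4% of all tested genes. None was called higher in either. The summed FPKM of 7 cholangiocyte markers was 15.3 to 18.5 in NDWT and 297 to 497 in HFWT, that of 15 macrophage markers 296 to 390.0 and 1510 to 2087, and that of 12 stellate cell and myofibroblast markers 56.3 to 70.4 and 307 to 591. In TSP-1 null mice the same sums went from 12.5 to 15.7 in NDKO to 185 to 367 in HFKO, from 276 to 462 to between 1008 and 2231, and from 72.0 to 77.7 to between 314 and 431. Of the 15 macrophage markers 11 were called higher in WT and 12 in the null mice, and 2, the Kupffer cell markers Timd4 and Clec4f, were called lower in each. All 12 stellate cell markers and all 7 cholangiocyte markers were called higher in both. All 7 tested neutrophil and dendritic cell markers and 7 of 8 T and B cell markers were called higher in both. Of 8 endothelial markers only 2 and 3 were called higher, beside 44.1% and 41.9% of all tested genes. In bulk liver, fewer hepatocytes and less RNA of a gene per hepatocyte cannot be told apart. The part of these shifts in the lower levels of the 9 genes was not tested beyond the scalings that follow.

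When each library was shifted to the same mean level of the 16 hepatocyte markers, 3 genes stayed called lower in WT, namely Hpd, Tdo2 and Afmid, and 4 in the TSP-1 null mice. Their median log2FC was then -0.34 and -0.48, while the median of all tested genes was 0.90 and 0.91. All 9 genes were below 0 in WT, and 8 of 9 in the TSP-1 null mice, where Gstz1 stood at 0.04. Cps1, Arg1 and Pck1, metabolic markers, were left out of the marker mean in a version chosen after seeing the data, and then 3 and 5 genes were called lower. In that version 343 and 333 of the 14524 tested genes were called lower. With median of ratios scaling, which brought the median of all tested genes from 0.53 and 0.50 to 0.01 and 0.003, all 9 genes were called lower in both genotypes. With quantile normalization 6 were called lower in each, beside 2562 of all 14524 tested genes in WT and 2186 in the TSP-1 null mice.

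**Figure D3:**
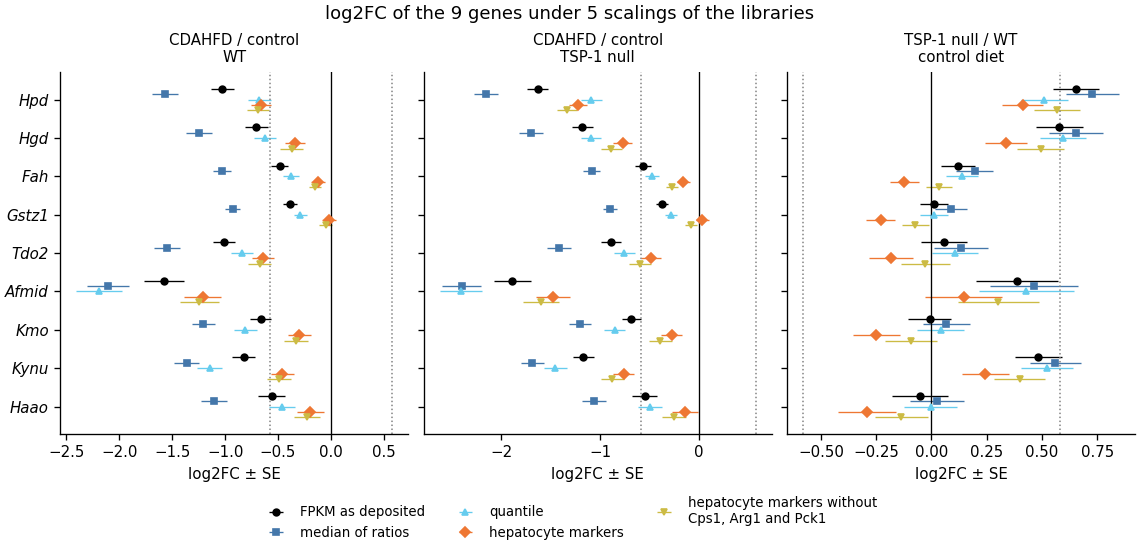
log2FC with SE (horizontal axes) of the 9 genes in the diet comparisons and in the genotype comparison on control diet, under 5 scalings of the libraries given by marker shape and colour; dotted lines mark a log2FC of 0.58 in either direction. Median of ratios gives the largest falls on CDAHFD for every gene except Afmid, which falls slightly further under quantile normalization. The hepatocyte marker scalings give the smallest falls for every gene except Hpd, and Gstz1 is near 0 under them. For Hpd, quantile normalization gives the smallest fall in the TSP-1 null mice and a value between the hepatocyte marker scalings in WT.

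The scaling also set the balance over all genes. As deposited, 6412 genes were called higher and 671 lower in WT, against 3351 and 2145 with median of ratios scaling and 9948 and 319 with hepatocyte marker scaling. In TSP-1 null mice the numbers were 6088 and 581 as deposited, 3283 and 1921 with median of ratios and 10289 and 282 with hepatocyte marker scaling. Between genotypes on control diet, 253 genes were called higher and 440 lower as deposited, 349 and 328 with median of ratios and 145 and 1731 with hepatocyte marker scaling. On CDAHFD the numbers were 24 and 48, 35 and 27, and 37 and 751.

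On control diet, Hpd was higher in the libraries labelled TSP-1 null, which carried more Thbs1 than the WT libraries. It was the 1 gene of the 9 called higher, where 1.74% of all tested genes were, and 0 were called lower, where 3.03% were. The NDKO values of 1503 to 1806 FPKM did not overlap with the NDWT values of 904 to 1265, a log2FC of 0.65 ± 0.11 (FDR = 0.000675), or 1.57-fold. Hgd had a log2FC of 0.579 ± 0.11 (FDR = 0.00187), just under the threshold, and Kynu one of 0.48 ± 0.11 (FDR = 0.00543). For Hgd and Kynu, as for Hpd, every NDKO library was above every NDWT library. These 3 of 9 genes had groups that did not overlap, as had 9.03% of all tested genes. Afmid followed with 0.39 ± 0.185 (FDR = 0.181), with overlapping groups.

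The other 5 genes had log2FC between -0.05 and 0.12 in this comparison, and their groups overlapped. Gstz1 stood at 0.01 with a 95% confidence interval from -0.12 to 0.14, and Kmo at -0.01 with an interval from -0.21 to 0.19. The hepatocyte marker mean was higher in every NDKO than in every NDWT library, and 3 of the 16 markers were called higher. With hepatocyte marker scaling no member was called higher, and Hpd had a log2FC of 0.41 and Hgd of 0.34. Without Cps1, Arg1 and Pck1 among the markers, Hpd stood at 0.57 (limma FDR = 0.00158), just under the threshold. With median of ratios scaling Hgd was called higher beside Hpd. With quantile normalization Hpd lost its call, with a log2FC of 0.51 (FDR = 0.00542), and Hgd was the gene called, at 0.60 (FDR = 0.00189). Without NDKO library 2, 3 or 5 or NDWT library 4 or 5, Hgd was also called higher, with a log2FC of up to 0.66 without NDWT library 4. NDWT library 4 held the highest NDWT value of Hpd, Hgd, Tdo2 and Kynu.

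On CDAHFD no member passed the test between genotypes. With limma, 0 of the 9 genes were called higher and 0 lower, beside 0.165% and 0.33% of all tested genes. The lowest unadjusted limma p of the 9 genes was 0.104, that of Tdo2. None of the 9 had groups that did not overlap, as 4.98% of all tested genes had. The largest log2FC was that of Tdo2, at 0.18 ± 0.10 with a 95% confidence interval from -0.04 to 0.39 (FDR = 0.391). Hpd stood at 0.05, with an interval from -0.17 to 0.27, and Kmo at -0.03, with one from -0.23 to 0.17. The interval of Afmid was the widest, from -0.31 to 0.46. The hepatocyte marker mean in HFKO overlapped with that in HFWT, and no hepatocyte marker was called in this comparison. HFKO library 5 was the lowest of its group for 6 of the 9 genes.

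The diet and genotype comparisons share their control libraries, so the larger fall of Hpd, Hgd and Kynu in the TSP-1 null mice and their higher level in NDKO rest on the same libraries. The interaction of diet and genotype tests them directly. With limma, 0 of the 9 genes were called, beside 0.337% of all tested genes called higher and 0.31% called lower. The unadjusted limma p was lowest for Hpd (0.000644), Hgd (0.00541) and Kynu (0.0326), and it was above 0.05 for the other members. Hpd had an interaction of -0.61 ± 0.15 (FDR = 0.0564), Hgd of -0.47 ± 0.15 (FDR = 0.136) and Kynu of -0.345 ± 0.15 (FDR = 0.275). Without NDWT library 4, the interaction of Hpd was -0.67 and was called (FDR = 0.0318). Tdo2 and Kmo stood at 0.12 ± 0.15 and -0.02 ± 0.14.

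Ratios between enzymes of neighbouring or competing steps were taken within a library. A factor common to all genes of a library cancels from them, apart from the 0.1 added to each FPKM. That addition weighs most on low genes such as Afmid and Acmsd, and quantile normalization is not such a factor. Exact permutation tests, two-sided, were run on the ratios, adjusted over 20 tests of 5 ratios in 4 comparisons. Ratios show unequal change only and do not say which gene changed. The smallest p that 5 against 5 libraries allow is 0.00794. No interaction of diet and genotype was tested for the ratios, so a diet call in a single genotype is not a difference between genotypes.

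On CDAHFD the RNA of Hpd, which makes homogentisate, was reduced relative to that of Hgd, which removes it. The log2 ratio of Hpd to Hgd was 2.31, 2.24, 2.26, 2.13 and 2.20 in NDWT and 1.97, 1.76, 1.98, 1.85 and 1.99 in HFWT, with no overlap. The difference was -0.32 (exact p = 0.00794, adjusted p = 0.0227). In TSP-1 null mice it was -0.45 (exact p = 0.00794, adjusted p = 0.0227), from 2.18 to 2.43 in NDKO down to 1.72 to 1.96 in HFKO. Between genotypes the ratio of Hpd to Hgd differed by 0.07 on control diet (exact p = 0.206) and by -0.06 on CDAHFD (exact p = 0.365), differences within the spread of the libraries.

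At the next steps the ratio of Gstz1 to Fah rose on CDAHFD in the TSP-1 null mice by 0.19 (exact p = 0.00794, adjusted p = 0.0227). It was 0.29 to 0.38 in NDKO and 0.50 to 0.58 in HFKO. In WT mice the difference was 0.10 (exact p = 0.143), and HFWT library 4 at 0.34 stood below the other HFWT libraries at 0.56 to 0.63. At the head of the kynurenine route the log2 ratio of Tdo2 to Afmid rose by 0.57 in WT and 1.00 in the TSP-1 null mice (exact p = 0.00794, adjusted p = 0.0227 in each), without overlap. It was 5.05 to 5.62 in NDWT, 5.64 to 6.31 in HFWT, 4.66 to 5.34 in NDKO and 5.64 to 6.44 in HFKO.

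Kmo and Kynu compete for kynurenine, since Kynu also cleaves it directly. The log2 ratio of Kmo to Kynu was 1.22, 1.12, 1.28, 0.69 and 1.08 in NDWT and 0.59, 0.53, 0.51, 0.64 and 0.65 in NDKO. All NDKO libraries were below all NDWT libraries, and NDWT library 4 was close to them. The difference was -0.49 (exact p = 0.00794, adjusted p = 0.0227). On CDAHFD the ratio of Kmo to Kynu was 1.09 to 1.35 in HFWT and 0.67 to 1.33 in HFKO, and the genotypes differed by -0.17 (exact p = 0.262). The diet difference in Kmo to Kynu was 0.485 in the TSP-1 null mice (exact p = 0.00794, adjusted p = 0.0227) and 0.16 in WT mice (exact p = 0.183). Both Kmo to Kynu calls rest on the same NDKO libraries.

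Acmsd and Qprt divide the product of Haao, the former diverting it from NAD. The log2 ratio of Acmsd to Qprt was -4.97, -4.57, -4.24, -3.96 and -4.04 in NDWT and -3.15, -3.34, -3.99, -3.25 and -2.34 in NDKO. NDKO library 3 lay within the NDWT range and the others above it, a difference of 1.14 (exact p = 0.0159, adjusted p = 0.0353). The diet difference was 0.79 in WT mice (exact p = 0.0159, adjusted p = 0.0353) and -0.15 in the TSP-1 null mice (exact p = 0.659). Both Acmsd to Qprt calls rest on the same NDWT libraries. Leaving out NDWT library 3 or 5 took the adjusted p of either Acmsd to Qprt call to 0.0529, and leaving out HFWT library 1, 3 or 5 took that of the diet call to between 0.0705 and 0.0794.

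**Figure D4:**
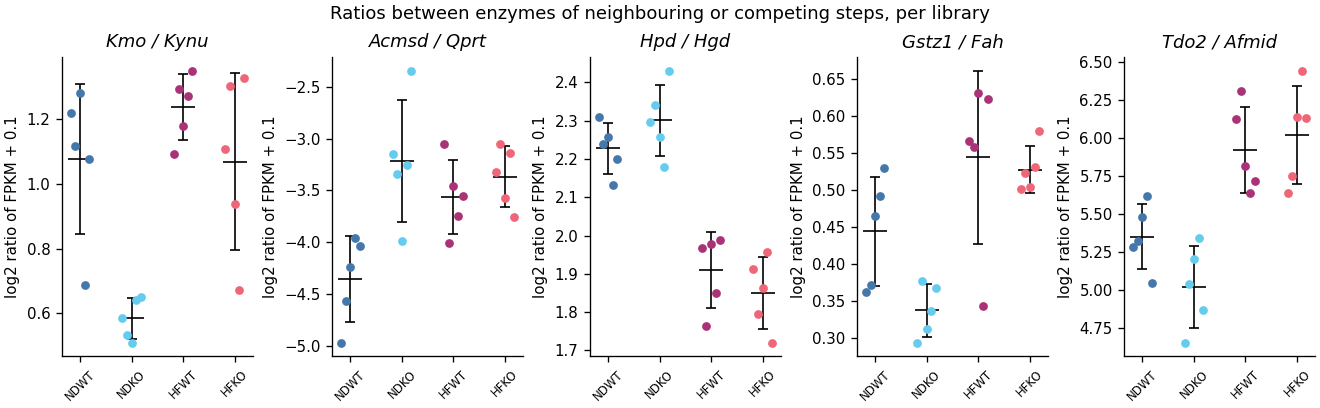
log2 ratio of FPKM + 0.1 (vertical axes, not starting at 0) for the 5 pairs of genes in each library of the 4 groups, with mean and SD. The Hpd to Hgd ratio is lower and the Tdo2 to Afmid ratio higher in every CDAHFD library than in any control-diet library of the same genotype, and the Kmo to Kynu ratio is lowest in NDKO.

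On the tyrosine route Tat, Hpd and Hgd were called lower on CDAHFD in each genotype, and Gstz1 and Fah were not called. Tat, the aminotransferase that feeds Hpd, fell by 0.73 ± 0.27 (FDR = 0.0197) in WT and by 1.07 ± 0.27 (FDR = 0.00136) in the TSP-1 null mice on the log2 scale. Among genes that make or recycle tetrahydrobiopterin, a cofactor of aromatic amino acid hydroxylation, Gchfr, the feedback regulator of Gch1, was called lower in WT with a log2FC of -0.71 ± 0.12 (FDR = 2.42e-05). Gch1, Pts, Spr, Pcbd1 and Qdpr were not called in either genotype.

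Of 12 tested kynurenine genes, 8 were called lower on CDAHFD in WT, beside 4.62% of all tested genes, and 1 higher, beside 44.1%. In the TSP-1 null mice 5 were called lower, beside 4%, and 0 higher, beside 41.9%. Beside Tdo2, Afmid, Kmo and Kynu, those called lower in WT were Aadat, Ccbl1 and Ccbl2, which transaminate kynurenine, and Ido2, a relative of Ido1. Aadat fell by 1.16 ± 0.12 (FDR = 5.25e-08) in WT and by 1.46 ± 0.12 (FDR = 2.72e-09) in the TSP-1 null mice on the log2 scale. Acmsd was the gene called higher in WT, by 0.88 ± 0.27 (FDR = 0.00658), with a mean of 2.47 ± 0.53 FPKM in NDWT and 4.74 ± 1.48 in HFWT. Acmsd was also called higher in NDKO than in NDWT, by 1.26 ± 0.27 (FDR = 0.00476), and Ido2 lower, by -0.60 ± 0.17 (FDR = 0.0224). Qprt, which commits the route to NAD, had a log2FC of 0.09 ± 0.08 in WT and 0.05 ± 0.08 in the TSP-1 null mice. Ido1, the form of the dioxygenase found mainly outside the liver, did not pass the filter, with group means of 0.005 to 0.038 FPKM.

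Other genes around these routes went in both directions. Of 7 tested genes of NAD synthesis and salvage, 2 were called higher in WT, beside 44.1% of all tested genes, and none lower, beside 4.62%. In the TSP-1 null mice 1 was called higher, beside 41.9%, and none lower, beside 4%. Nampt, the salvage enzyme, was the gene called in both, by 0.79 ± 0.10 (FDR = 9.76e-07) and 0.69 ± 0.10 (FDR = 6.73e-06). The medians over all tested genes were 0.53 and 0.50. Of 6 tested carriers of aromatic amino acids, 5 were called higher in WT and 4 in the TSP-1 null mice, beside 44.1% and 41.9%. Slc7a8 stood at 1.81 ± 0.15 (FDR = 3.56e-09) and 1.98 ± 0.15 (FDR = 1.21e-09). Inmt, which methylates tryptamine, fell by 2.03 ± 0.26 (FDR = 7.27e-07) and 1.51 ± 0.26 (FDR = 2.95e-05), whereas Maoa rose in both genotypes. Il4i1 was called higher in both, but passed the filter of FPKM above 0.5 only through its CDAHFD libraries. Its means were 0.429 FPKM in NDWT and 0.56 FPKM in NDKO, and its rise is not read as a result. Of 16 regulators examined, 2 were called higher in each genotype, beside 44.1% and 41.9% of all tested genes, and 1 lower, beside 4.62% and 4%. The gene called lower was Ppara, a nuclear receptor of fatty acid metabolism, which fell by 1.22 ± 0.14 (FDR = 1.44e-07) in WT and 0.65 ± 0.14 (FDR = 0.000275) in the TSP-1 null mice on the log2 scale.

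**Figure D5:**
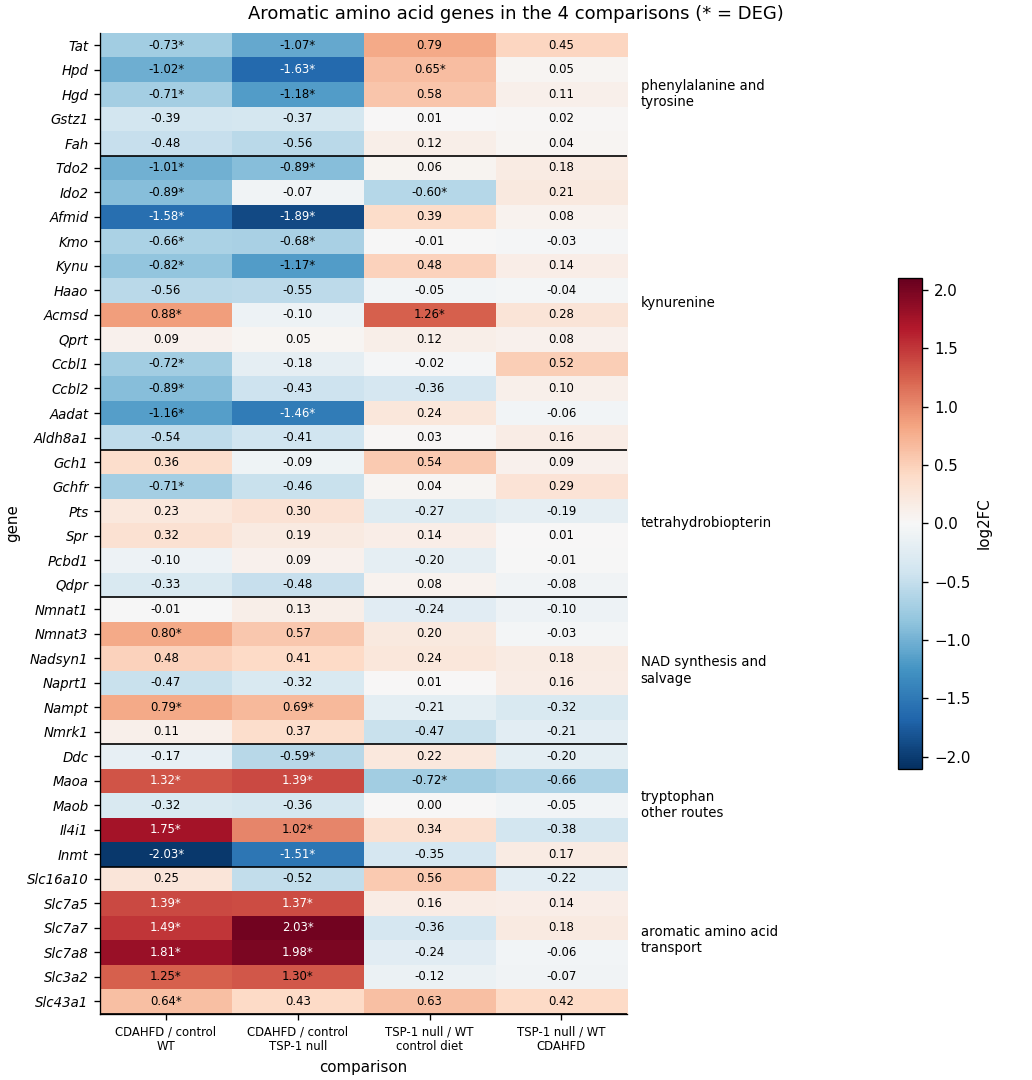
log2FC (colour and printed value) of tested genes of 6 aromatic amino acid lists (rows) in the 4 comparisons (columns); an asterisk marks a DEG. The blue block covers most tyrosine and kynurenine genes in the diet columns, and the carriers at the bottom that are marked as DEGs are red there.

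Other amino acid routes differed in how many genes were called. Of all tested genes, 4.62% were called lower on CDAHFD in WT and 4% in the TSP-1 null mice. Of 8 urea cycle genes, 2 were called lower on CDAHFD in WT and 5 in the TSP-1 null mice, with medians of -0.44 and -0.76. On control diet 4 urea cycle genes were called higher in the libraries labelled TSP-1 null, beside 1.74% of all tested genes. They were Asl, Ass1, Cps1 and Arg1, with Asl at 1.63 ± 0.18 (FDR = 2.64e-05). Of 22 genes of branched-chain amino acid breakdown, 2 were called lower in WT and 1 in the TSP-1 null mice, with medians of -0.22 and -0.26. The medians of the 9 genes, -0.71 and -0.89, were lower than those of either list, a difference that was not tested.

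The likeness of genes was measured as the root mean square difference of centred log2 profiles over the 20 libraries. Hgd and Kynu, enzymes of different routes, were each other's closest of all tested genes, at 0.13. The gene closest to Hpd was Ahcy, the hydrolase of S-adenosylhomocysteine, at 0.12, followed by Gm4737 at 0.17. Dpyd, of pyrimidine breakdown, was closest to Tdo2 at 0.15, and Qdpr, which recycles tetrahydrobiopterin, was closest to Haao at 0.14. Gstz1 and Fah were each other's nearest members, at 0.105, behind Pgm2 for Gstz1 at 0.07 and Masp2 for Fah at 0.08. Serpina1d was closest to Afmid at 0.28, and Il1rap was closest to Kmo at 0.14. The members' own root mean squares ranged from 0.205 for Gstz1 to 0.921 for Afmid, so the differences do not rank members by likeness. These profiles share libraries and groups and are given as a description.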

How the data were processed

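Liver RNA was enriched for poly(A), made into directional libraries and sequenced as paired reads on a HiSeq 4000, per the labels. The authors ran QuickRNASeq and deposited 1 table of FPKM per gene for the 20 libraries. The submitters' processing notes name STAR 2.5.2, featureCounts and Subread 1.5.1, and a human build, whereas 37607 gene IDs matched mouse GENCODE M21 and 99.8% of these overlapped its GRCm38 positions. The labels name the right medial lobe and the study's methods another lobe. Fragment numbers per library, 15641545 to 23276322, were recovered from the steps of the FPKM values and length, at least 99.99% of them whole within 0.1 fragments, and counted only for depth. No 2 libraries of a group were copies (40 pairs, chi-square per degree of freedom at least 13.0).

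log2(FPKM + 0.1) was fitted with limma 3.58.1 in R 4.3.3 (1 mean per group, all 20 libraries, eBayes with trend, Benjamini-Hochberg over genes that exceeded an FPKM of 0.5 in 5 libraries or more). Fold changes are on that scale, which understates the change of low genes. The script was tested on simulated data. Ratios were compared with exact permutation tests. The named genes were the 9 members, any gene of 6 aromatic amino acid lists, at most 4 genes of lowest FDR from the regulator, urea cycle and branched-chain lists, Thbs1, Tk1 and the 2 most alike genes per member. Members and lists were chosen with earlier results of these data known. Some genes of these lists are not reported here. P-values measure the spread between mice. Promoters are from RefSeq (GRCm38.p6), without Kynu. Alternatives were other pseudocounts, filters, scalings, models, a replicate block and leaving out each library.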

Additional observations from a re-analysis of the deposited data

Results flagged for a closer look

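In 56 groups of 5 libraries, the lowest or highest library was set against Dixon's 95% critical value of 0.71 for its gap over the range of its group, which chance exceeds in about 1 of 20 groups, and 4 groups exceeded it. HFKO library 5 was low for Fah, at 150.0 FPKM against 179 to 190.3 in the other HFKO libraries (gap over range 0.731). It was also low for Gstz1, at 224 FPKM against 258 to 270.0 (gap over range 0.737). NDWT library 5 was high for Afmid, at 14.4 FPKM against 9.65 to 11 (gap over range 0.718). HFWT library 4 was low in the log2 ratio of Gstz1 to Fah, at 0.34 against 0.56 to 0.63 (gap over range 0.744).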

How the results depend on the processing

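The 9 genes stayed below 0 in both diet comparisons under all alternatives, except Gstz1 at 0.0376 in TSP-1 null mice with hepatocyte marker scaling. Of 128 counts of called members under settings other than leaving out a library, 122 stayed within 1.5 times their value. Many of these were 0 throughout, and the rule takes 6 against 9, or 6 against 4, as unchanged. With hepatocyte marker scaling, and without Cps1, Arg1 and Pck1 (chosen after seeing the data), 3 genes were called lower in WT instead of 6, and 0 higher on control diet instead of 1. On control diet 2 were called higher with median of ratios scaling and 3 with no fold change threshold. With quantile normalization the count was 1, but the called gene was Hgd (0.596) and Hpd (0.511) was not called. Leaving out 1 library gave 6 to 7 genes called lower in WT, 6 to 8 in TSP-1 null mice, 1 to 2 higher between genotypes on control diet and 0 to 1 lower in the interaction. The cause of these differences was not tested.

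With the replicate number as a block, the count of called members changed in none of the comparisons. The deviations of same-numbered libraries from their group means correlated between -0.133 and 0.081, and such libraries share only a number. For the ratios, an exact test of 5 pairs cannot give p under 0.0625, and each call was lost with the replicate block at an adjusted p of 0.125. The values with the block were Kmo to Kynu 0.485 (diet, TSP-1 null) and -0.492 (genotype, control diet), Acmsd to Qprt 0.793 (diet, WT) and 1.141 (genotype, control diet), Hpd to Hgd -0.319 and -0.452 (diet, WT and TSP-1 null), Gstz1 to Fah 0.19 (diet, TSP-1 null), and Tdo2 to Afmid 0.569 and 0.998 (diet, WT and TSP-1 null). With a pseudocount of 1 the ratio of Tdo2 to Afmid in WT was 0.366 (adjusted p = 0.0529).

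Without 1 library, the ratio of Acmsd to Qprt ranged from 0.639 to 0.904 (diet, WT), -0.348 to 0.064 (diet, TSP-1 null) and 0.923 to 1.336 (genotype, control diet). Gstz1 to Fah ranged from 0.078 to 0.15 (diet, WT), -0.127 to -0.086 (genotype, control diet, where leaving out NDWT library 1 or 2 gave an adjusted p of 0.0397 or 0.0476) and -0.067 to 0.006 (genotype, CDAHFD). Without HFWT library 4 the diet value in WT, 0.15, was called (adjusted p = 0.0353). Tdo2 to Afmid ranged from -0.006 to 0.197 (genotype, CDAHFD).

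Some genotype values changed sign with the scaling. On control diet, hepatocyte marker scaling gave -0.12 for Fah, -0.23 for Gstz1 (limma FDR = 0.00893, under the fold change threshold) and -0.18 for Tdo2. Without Cps1, Arg1 and Pck1 it gave -0.0726 for Gstz1 and -0.0269 for Tdo2. Median of ratios gave 0.0677 for Kmo and 0.0234 for Haao, and quantile normalization 0.0413 for Kmo. On CDAHFD, hepatocyte marker scaling put all 9 genes below 0, with a median of -0.15 beside -0.293 over all tested genes. It gave -0.15 for Hpd, -0.0898 for Hgd, -0.16 for Fah, -0.17 for Gstz1 (limma FDR = 0.0495), -0.0202 for Tdo2, -0.12 for Afmid and -0.0561 for Kynu. Without Cps1, Arg1 and Pck1 it gave -0.0792 for Hpd, -0.0194 for Hgd, -0.0853 for Fah, -0.1 for Gstz1 and -0.0497 for Afmid. Median of ratios gave 0.0692 for Kmo and 0.0595 for Haao, and quantile normalization 0.00177 for Kmo. In the interaction, Gstz1 was -0.029 and Haao -0.0261 without Cps1, Arg1 and Pck1, Kmo 0.0254 with hepatocyte marker scaling and 0.00154 with median of ratios, and Haao -0.0329 with quantile normalization.

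Without 1 library, values on control diet ranged from -0.018 to 0.0362 for Gstz1, -0.0564 to 0.0458 for Kmo and -0.13 to 0.0393 for Haao. On CDAHFD they ranged from -0.0035 to 0.13 for Hpd, -0.00545 to 0.0999 for Fah, -0.00203 to 0.0707 for Gstz1, -0.0534 to 0.19 for Afmid, -0.0901 to 0.0325 for Kmo and -0.099 to 0.0286 for Haao. Interaction values ranged from -0.0143 to 0.0584 for Gstz1, -0.0821 to 0.0404 for Kmo and -0.0769 to 0.0949 for Haao.

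Of the 9 genes depth limits Afmid most, whose lowest library held 161 fragments.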
